A study of Mus musculus with 8 samples.

Results

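Immortalized mouse pancreatic stellate cells (PSCs) that had received medium conditioned by KPC-shControl organoids were compared with PSCs in control medium, to describe how stellate cells respond to the secretions of cancer organoids in which Brca2 was left intact. PSCs are fibroblast-related cells that reside in the healthy pancreas and are activated in pancreatic cancer. KPC organoids are mouse pancreatic cancer cells with mutant Trp53 grown in 3D, and here they carried a non-targeting shRNA vector, from which the name shControl is taken. PSCs were embedded in growth-factor-reduced Matrigel. They stayed in growth medium, which was DMEM containing 10% FBS, during the first 4 days, and spent another 4 days in shControl-CM (3 libraries) or control medium (2 libraries). These 5 of the 8 libraries of the series were used. The comparison covered every gene with at least 10 counts summed over the 5 libraries, which kept 12086 of the 12160 genes listed.

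The control is called DMEM in the sample titles and medium conditioned by the PSCs themselves in the recorded treatment, while the study's text also speaks of growth medium, so it is called control medium here. Organoid medium was collected in DMEM with less serum than the growth medium, so secreted factors, serum and used nutrients cannot be told apart. According to the study, each library came from a separate Matrigel dome, and all domes held a single immortalized line, so p-values measure the spread between domes of that line. In a bulk library, fewer cells of a type and less RNA per cell cannot be told apart.

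Reads counted on genes summed to 1592302, 1093609 and 1624392 in the shControl-CM libraries and to 5476988 and 4623846 in control medium. A floor of 3 counts was therefore worth 1.88 to 2.84 CPM with shControl-CM but 0.511 and 0.631 CPM with control medium, where CPM are counts per 1e6 counts of a library total scaled by edgeR's TMM method. Consequently, 1297 of the genes tested had 3 or fewer counts in every shControl-CM library and 63 in every control library. This floor reflects counting error alone. In each shControl-CM library about 12% of counts fell on its 10 top genes, compared with 5.43% and 5.51% in control medium. Log2 differences between libraries were taken on CPM plus 2, across genes averaging over 20 CPM. Their SD was 0.41 to 0.67 among the shControl-CM libraries and 0.26 between the control libraries. Counting error is part of these SDs and is larger in the shallower shControl-CM libraries.

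A stellate cell can take several states. In the contractile, myofibroblast-like state, serum response factor (SRF) and the YAP and TAZ coactivators of TEAD factors, together with TGF-β signalling, are known to drive smooth muscle actin, actin-binding proteins and collagens. In the inflammatory state, IL-1 and related signals act through NF-κB, and IL-6 family cytokines act through JAK and STAT3 to drive cytokines, chemokines and acute phase proteins. Feedback inhibitors of each pathway are often among its own target genes.

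DNA upstream of genes from both programmes is shown first, because the chemokine ligands and contractile genes described below held letters of the NF-κB and SRF motifs in a larger share of windows than all genes did. Sequences are from RefSeq (GRCm38.p6) and run 5′ to 3′ on the gene's strand up to the base before its outermost annotated transcript start. In the 4 chemokine promoters, which lie close together on chromosome 5, capitals mark matches to the kB motif of NF-κB, with overlapping matches merged. They are Cxcl1 (chr5:90890995-90891244, plus strand), Cxcl2 (chr5:90903649-90903898, plus strand), Cxcl3 (chr5:90785851-90786100, plus strand) and Cxcl10 (chr5:92348890-92349139, minus strand).
Cxcl1: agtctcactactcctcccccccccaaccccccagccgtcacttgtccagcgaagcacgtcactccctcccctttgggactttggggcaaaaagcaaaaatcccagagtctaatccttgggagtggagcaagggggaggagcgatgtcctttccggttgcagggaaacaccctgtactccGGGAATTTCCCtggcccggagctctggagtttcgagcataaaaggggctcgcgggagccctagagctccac
Cxcl2: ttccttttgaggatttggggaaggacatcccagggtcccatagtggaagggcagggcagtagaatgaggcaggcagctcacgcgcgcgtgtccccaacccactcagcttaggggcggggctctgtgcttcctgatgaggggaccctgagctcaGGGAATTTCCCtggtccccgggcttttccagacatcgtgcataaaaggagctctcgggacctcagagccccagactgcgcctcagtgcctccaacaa
Cxcl3: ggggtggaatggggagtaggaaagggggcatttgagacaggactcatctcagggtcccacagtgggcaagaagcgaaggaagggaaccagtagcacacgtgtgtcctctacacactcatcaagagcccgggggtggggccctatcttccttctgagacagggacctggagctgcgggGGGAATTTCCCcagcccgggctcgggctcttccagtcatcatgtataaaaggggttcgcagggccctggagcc
Cxcl10: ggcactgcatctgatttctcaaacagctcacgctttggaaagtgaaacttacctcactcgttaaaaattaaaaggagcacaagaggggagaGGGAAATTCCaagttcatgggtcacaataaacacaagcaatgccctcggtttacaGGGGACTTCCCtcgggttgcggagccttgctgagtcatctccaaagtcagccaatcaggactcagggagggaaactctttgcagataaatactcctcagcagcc
The match in Cxcl1, Cxcl2 and Cxcl3 is the same run of letters, and it begins 71, 97 and 73 bases upstream of the start site. Cxcl10 had other letters at 159 and 104 bases upstream.

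In the next 3 promoters, capitals mark the CArG motif of SRF. They belong to Myl9 (chr2:156775214-156775407, plus strand), Cnn2 (chr10:79988350-79988599, plus strand) and Vcl (chr14:20929148-20929382, plus strand).
Myl9: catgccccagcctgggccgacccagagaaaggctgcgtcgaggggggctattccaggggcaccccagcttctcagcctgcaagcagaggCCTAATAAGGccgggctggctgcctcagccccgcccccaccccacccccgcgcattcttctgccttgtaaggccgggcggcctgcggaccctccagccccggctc
Cnn2: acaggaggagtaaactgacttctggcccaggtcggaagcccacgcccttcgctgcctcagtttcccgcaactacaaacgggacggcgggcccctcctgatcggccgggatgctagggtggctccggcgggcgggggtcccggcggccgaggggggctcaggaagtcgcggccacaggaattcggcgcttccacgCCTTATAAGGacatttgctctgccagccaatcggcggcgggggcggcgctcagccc
Vcl: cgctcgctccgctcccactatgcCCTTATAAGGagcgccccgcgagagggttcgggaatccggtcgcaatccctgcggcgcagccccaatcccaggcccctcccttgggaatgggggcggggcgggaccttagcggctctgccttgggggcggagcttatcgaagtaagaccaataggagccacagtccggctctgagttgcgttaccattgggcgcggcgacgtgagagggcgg
The motif begins 161, 56 and 227 bases upstream of the start site used for the window, and in Vcl it overlaps a kB match. In Myl9 and Vcl that start site lies farther downstream than the end of the printed run, because another annotated transcript begins before it. Motifs were searched on both strands in windows of 300 bases around the start site, which were found for 9585 of the genes tested. The kB motif was in 10.5% of these windows and CArG in 1.34%. Among chemokine ligands, 5 of 11 windows (45.5%) held a kB match. Of these genes, 3 were called higher (Cxcl1, Cxcl2 and Cxcl3), 1 was called lower (Cxcl10) and 1 was not called. Of all 11 windows, 4 belonged to genes called higher and 3 to genes called lower. Among genes of the NF-κB pathway 10 of 19 windows (52.6%) held one, 5 of them in genes called higher and 1 in a gene called lower, while 12 of all 19 windows belonged to genes called higher. CArG was in 7 of 32 windows of contractile genes (21.9%), of which 6 belonged to genes called lower and 1 to a gene not called. Of all 32 windows, 21 belonged to genes called lower. The TEAD motif CATTCC was in 11.8% of all windows and in 13 of 22 windows (59.1%) of SRF and YAP genes. Of these 13 windows, 8 were in genes not called and 5 in genes called lower, while 8 of all 22 belonged to genes called lower. The kB motif was not limited to genes that rose, as it was in 8 of 32 windows of contractile genes (25%), in 2 of 10 of acute phase genes (1 called higher and 1 called lower), in 11.5% of all genes called higher and in 10% of those called lower. Among genes with at least 50 CPM in the higher medium whose values did not overlap, it was in 17.7% (14 of 79 windows) of those called higher by a log2 fold change over 2 and in 7.89% (6 of 76) of those called lower by as much. The motif of the AP-1 factors, TGANTCA with N for any base, was in 15.2% and 11.8% of the same windows, against 4.89% of all windows. A match is a run of letters in the window and not evidence of binding.

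Genes were called when the adjusted p of edgeR's quasi-likelihood test was under 0.1, the absolute log2 fold change was over 0.5 and the mean normalized count was over 5. By this rule 4488 genes were called, which is 37.1% of the genes tested. Of all genes tested, 2200 (18.2%) were higher with shControl-CM and 2288 (18.9%) were lower. The values of the 2 media did not overlap in 4442 of the genes called. Among all genes tested, 3222 were higher and 4030 lower with shControl-CM without overlap, so lack of overlap was common. Called genes that were higher took 37.2% of the counts with shControl-CM and 15.6% with control medium, and those that were lower took 12.8% and 29.1%. The median log2 fold change over all genes tested was -0.10, or -0.21 with scaling by total counts, and gene lists below are read against it. Counts under other thresholds and without single libraries are given with the processing alternatives.

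**Figure D1:**
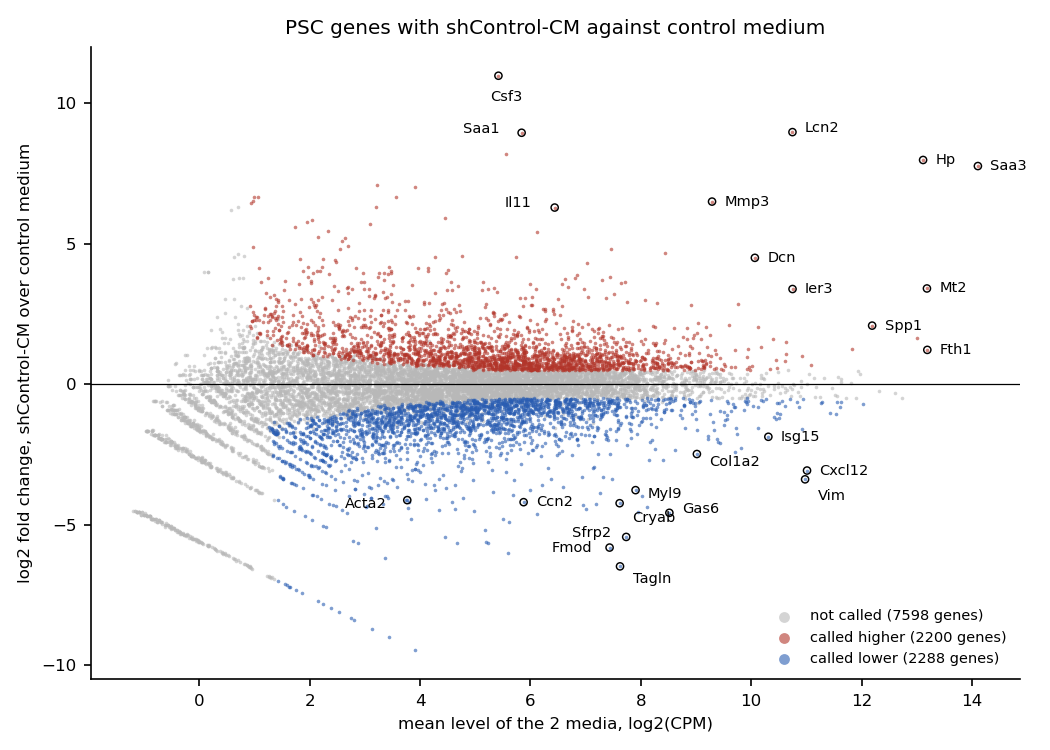
Log2 fold change of shControl-CM over control medium (vertical axis) against the mean level of both media (horizontal axis, log2 CPM) for each of 12086 genes, with called genes in red (2200 higher) and blue (2288 lower) and other genes in grey. Saa3, Hp and Lcn2 stand at high level and log2 fold changes of 7.77 to 8.98, Tagln and Fmod at -6.48 and -5.81, and the diagonal streaks at lower left are genes with few counts in one medium.

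Acute phase and antimicrobial proteins, which the liver and inflamed tissues secrete, had the highest median of the lists. Of 12 measured, 9 were higher (75.0%, against 18.2% of all genes), 1 was lower and the median log2 fold change was 4.49. Their summed level was 53694 to 60625 CPM with shControl-CM and 337 and 393 CPM with control medium. Saa3, an inflammation-induced serum amyloid A protein, had 33037, 33868 and 38649 CPM with shControl-CM and 168 and 154 CPM with control medium. All 3 conditioned libraries lay far above both controls, and the log2 fold change was 7.77 ± 0.25 (SE; edgeR adjusted p = 9.48e-08). Haptoglobin (Hp), which binds free haemoglobin, had 16733, 18492 and 17830 CPM against 82.0 and 57.2 CPM. Lipocalin 2 (Lcn2), which binds bacterial iron carriers, had 3349, 3594 and 3357 CPM against 6.99 and 6.52 CPM. These values were tight within each medium, and the log2 fold changes of Hp and Lcn2 were 7.99 ± 0.27 and 8.98 ± 0.23 (edgeR adjusted p = 1.32e-07 and 2.17e-08). Slpi, an inhibitor of neutrophil proteases, had 277, 357 and 381 CPM against 14.1 and 9.47 CPM, a log2 fold change of 4.82 ± 0.26 (edgeR adjusted p = 1.36e-06). The antimicrobial peptide gene Camp rose less, with 33.3, 44.4 and 53.8 CPM against 6.30 and 1.89 CPM. Saa1 and Saa2 are near-identical copies, so how reads were split between them is uncertain. For Saa1, 154, 130 and 188 counts against 2 and 0 were found, a ratio of 600.5 after scaling (95% counting interval 165 to 4973). The number called higher was 9 without either control library as well.

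Of 19 cytokines, 9 were higher (47.4%, against 18.2% of all genes) and 6 lower (31.6%, against 18.9%). Csf3, the growth factor of neutrophils (G-CSF), was absent from both control libraries at their depth (0 counts) and reached 108, 88 and 161 counts in shControl-CM. It was at least 136-fold higher, taking 3 counts in a control library as the floor. Il11, an IL-6 family cytokine, had 173, 148 and 193 CPM against 2.73 and 1.47 CPM, a log2 fold change of 6.29 ± 0.29 (edgeR adjusted p = 8.34e-07). Its 3 values were close together. Lif, another member of that family, had 132, 92.7 and 83.4 CPM against 3.75 and 5.05 CPM, a log2 fold change of 4.55 ± 0.30 (edgeR adjusted p = 5.68e-06). Il6 was called too, but its libraries spread widely, with 64, 25 and 10 counts against 1 and 1. Its ratio was 126 after scaling (95% counting interval 34.0 to 1055; edgeR adjusted p = 0.000586). Il33, an alarmin, had 40.2, 29.3 and 21.0 CPM against 7.84 and 9.26 CPM. Il1rn, the antagonist of the IL-1 receptor, had 17.6, 19.9 and 34.1 CPM against 7.16 and 6.10 CPM. Csf1, the growth factor of macrophages, was lower in all 3 libraries, with 287, 254 and 243 CPM against 476 and 507 CPM (log2 fold change -0.91 ± 0.15, edgeR adjusted p = 0.00163). The count of cytokines called lower was 2 with every library thinned to the smallest total and also 2 without control replicate 1.

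Among chemokine ligands, 8 of 17 were higher (47.1%, against 18.2% of all genes) and 4 were lower (23.5%, against 18.9%). Neutrophil-attracting ligands with the kB match printed above were all higher. Cxcl1 had 311, 182 and 68.3 CPM against 22.1 and 11.2 CPM, a log2 fold change of 3.47 ± 0.56 (edgeR adjusted p = 0.00147), and its lowest conditioned library was above both controls. Cxcl2 had 17.6, 8.51 and 9.19 CPM against 1.70 and 0.631 CPM. Cxcl3 had 19, 9 and 7 counts against 4 and 1. Cxcl5, of the same family, overlapped between media, with 5.91 CPM in shControl-CM library 3 and 10.2 CPM in control library 1. Its call was lost with DESeq2's likelihood ratio test, without shControl-CM replicate 2 and without control replicate 2. A further 3 ligands, which attract monocytes and lymphocytes, were higher with narrow spread. Ccl8 had 16.3, 18.9 and 17.7 CPM against 1.53 and 0.842 CPM, Ccl7 had 89.7, 69.0 and 102 CPM against 23.5 and 29.0 CPM, and Ccl5 had 900, 778 and 853 CPM against 316 and 359 CPM. Cxcl16, a ligand of activated T cells, was the last of the 8 at a log2 fold change of 1.14.

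Other ligands moved the opposite way. Cxcl12, which retains leukocytes and is a common product of resting fibroblasts, had 471, 510 and 340 CPM with shControl-CM against 3838 and 3544 CPM, a log2 fold change of -3.07 ± 0.19 (edgeR adjusted p = 3.84e-06). Cx3cl1, a membrane-bound chemokine, had 77.8, 85.1 and 63.0 CPM against 306 and 289 CPM (log2 fold change -1.99 ± 0.17, edgeR adjusted p = 3.70e-05). Cxcl10, an interferon target, had 203, 139 and 138 CPM against 294 and 443 CPM (log2 fold change -1.20 ± 0.22, edgeR adjusted p = 0.00326). No value of these 3 genes overlapped between media. Ccl2 was called lower by a small margin only, at 184, 176 and 173 CPM against 254 and 251 CPM (log2 fold change -0.51), and its call was lost in 7 of the alternatives, the strict thresholds included. The summed level of the list went from 5215 and 5063 CPM to between 2052 and 2594 CPM.

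**Figure D2:**
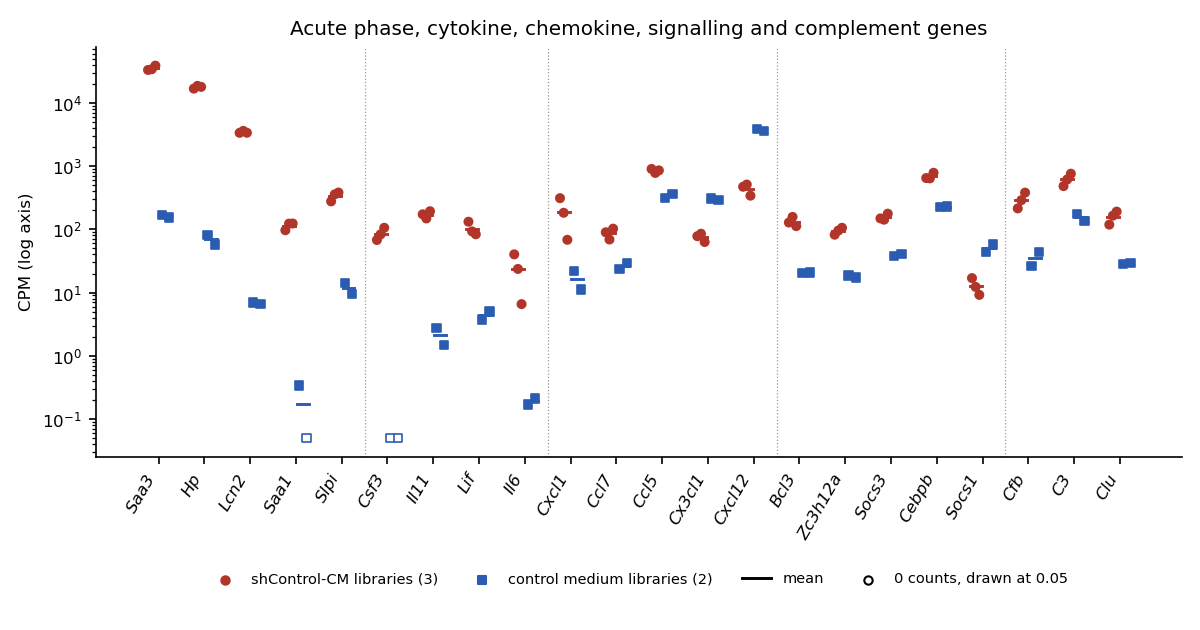
CPM in each library (log axis) of genes of the acute phase, cytokine, chemokine, signalling and complement groups, divided by dotted lines, with red circles for the 3 shControl-CM libraries, blue squares for the 2 control libraries, short lines for means and open symbols for 0 counts drawn at 0.05. Red and blue points do not overlap in any gene shown, and Cx3cl1, Cxcl12 and Socs1 are the ones that were lower with shControl-CM.

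Of 24 genes of the NF-κB pathway, 14 were higher (58.3%, against 18.2% of all genes) and 2 lower, with a median log2 fold change of 0.71. Without control replicate 1 or 2 the number higher was 8. Rela, the main activating subunit, had 508, 471 and 385 CPM against 166 and 162 CPM (log2 fold change 1.47 ± 0.17, edgeR adjusted p = 0.000222). Relb, of the alternative pathway, had 120, 157 and 187 CPM against 52.3 and 64.4 CPM. Inhibitors and feedback genes were among the members that rose most. Bcl3, an atypical IκB protein, had 128, 157 and 112 CPM against 20.4 and 20.8 CPM (log2 fold change 2.67 ± 0.21, edgeR adjusted p = 2.03e-05). Zc3h12a, an RNase that degrades cytokine mRNA, had 82.2, 95.5 and 106 CPM against 18.6 and 17.3 CPM (log2 fold change 2.39 ± 0.20, edgeR adjusted p = 3.69e-05). Nfkbia, the classical inhibitor, rose by a log2 fold change of 0.93, from 220 and 205 CPM to between 382 and 433 CPM. Tnfaip3, the deubiquitinase A20, did not pass the test, with 2.63 to 4.73 CPM against 6.13 and 7.15 CPM.

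At the receptors, 6 of 18 genes of the IL-1 and Toll-like receptor list were higher (33.3%, against 18.2% of all genes; 3 without control replicate 1 and 4 without control replicate 2), and the others were not called. Il1rl1, the receptor of IL-33, had 273, 207 and 259 CPM against 12.6 and 12 CPM, a log2 fold change of 4.32 ± 0.21 (edgeR adjusted p = 9.45e-07). Receptor and ligand of this pair therefore both rose. Cd14, the co-receptor of TLR4, had 237, 188 and 98.5 CPM against 50.9 and 33.5 CPM. Il1r1, the receptor of IL-1 itself, had 78.4, 51.1 and 47.9 CPM against 30.3 and 32.0 CPM, and its call was lost without either control library.

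In the JAK-STAT list 9 of 28 genes were higher (32.1%, against 18.2% of all genes) and 4 lower (14.3%, against 18.9%; 2 without control replicate 2), and Stat3 itself was not among them. Stat3 had 126, 150 and 197 CPM against 119 and 125 CPM (log2 fold change 0.37 ± 0.20, edgeR adjusted p = 0.175). Il6st, the shared receptor chain of the IL-6 family, had 168, 149 and 184 CPM against 113 and 137 CPM and missed the size threshold at 0.43. Members that rose included Socs3, Pim1, Cebpb and Jak2. Socs3, its feedback inhibitor, had 149, 142 and 177 CPM against 37.8 and 40.6 CPM (log2 fold change 1.99 ± 0.18, edgeR adjusted p = 5.44e-05). Pim1, a survival kinase, had 68.4, 54.8 and 80.8 CPM against 18.4 and 20.8 CPM. Cebpb, a transcription factor of acute phase genes, had 646, 638 and 783 CPM against 226 and 228 CPM (log2 fold change 1.6 ± 0.16, edgeR adjusted p = 0.000109). Jak2 had 132, 148 and 144 CPM against 49.2 and 42.9 CPM. Socs1, which mainly restrains interferon signalling, moved opposite to Socs3, with 16.9, 12.3 and 9.19 CPM against 44.1 and 57.4 CPM (log2 fold change -1.97 ± 0.29, edgeR adjusted p = 0.000829).

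Complement genes were higher in 5 of 14 (35.7%, against 18.2% of all genes) and lower in 3 (21.4%, against 18.9%; 1 without control replicate 1). Complement factor B (Cfb), of the alternative pathway, had 214, 289 and 380 CPM against 26.1 and 44.2 CPM (log2 fold change 3.07 ± 0.30, edgeR adjusted p = 8.72e-05). C3, the central component, had 482, 614 and 757 CPM against 174 and 136 CPM (log2 fold change 1.99 ± 0.22, edgeR adjusted p = 0.000171). Serping1, the C1 inhibitor, had 297, 330 and 362 CPM against 36.5 and 34.5 CPM. Clusterin (Clu), an extracellular chaperone that also restrains complement, had 119, 165 and 190 CPM against 28.5 and 29.0 CPM (log2 fold change 2.45 ± 0.23, edgeR adjusted p = 6.27e-05). Every conditioned library of these 4 genes was above both controls. Prostaglandin E2 enzymes rose as well. Ptgs2, the inducible cyclooxygenase, had 104, 75.6 and 17.1 CPM against 7.84 and 2.31 CPM, and Ptges, which acts after it, had 191, 209 and 229 CPM against 17.4 and 13 CPM (log2 fold changes 3.63 ± 0.69 and 3.78 ± 0.21, edgeR adjusted p = 0.00352 and 2.14e-06). Ptger4, a receptor of prostaglandin E2, was lower, at 4.39, 2.84 and 1.97 CPM against 16.9 and 17.7 CPM. Across the prostaglandin list 7 of 21 genes were higher (33.3%, against 18.2% of all genes; 4 without control replicate 2) and 4 lower (19%, against 18.9%; 1 and 2 without control replicate 1 and 2).

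Interferon-stimulated genes, which encode antiviral proteins, were mostly lower. Of 48 measured, 25 were lower (52.1%, against 18.9% of all genes), 6 were higher and the median log2 fold change was -0.72. The number higher was 3 with total counts as scaling and 1 without either control library, and the number lower was 23 and 18 without control replicate 1 and 2. Isg15, a ubiquitin-like modifier, had 667, 462 and 508 CPM against 1724 and 2267 CPM (log2 fold change -1.87 ± 0.19, edgeR adjusted p = 0.000117). Bst2, which tethers budding virus particles, had 1030, 824 and 1015 CPM against 2621 and 3201 CPM (log2 fold change -1.6 ± 0.17, edgeR adjusted p = 0.000117). Ifit1, a sensor of viral RNA, had 20.1, 7.56 and 5.25 CPM against 106 and 169 CPM (log2 fold change -3.59 ± 0.39, edgeR adjusted p = 0.000162). Irf7, the factor that amplifies the response, had 288, 285 and 380 CPM against 524 and 786 CPM. The control libraries themselves differed in these genes, control replicate 2 being the higher in each of the 4, and the conditioned libraries were below both.

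Of 29 antigen presentation genes, 4 were higher (13.8%, against 18.2% of all genes) and 11 lower (37.9%, against 18.9%; 6 without either control library). B2m, the shared light chain of MHC class I, was higher, with 1737, 1962 and 1692 CPM against 490 and 390 CPM (log2 fold change 2.03 ± 0.17, edgeR adjusted p = 3.70e-05). The heavy chain H2-K1 had 1279, 1104 and 983 CPM against 1601 and 1995 CPM and lost its call without control replicate 2, while H2-D1 did not pass the test. H2 genes resemble each other, so reads may be split between them. H2-T23, a non-classical heavy chain, had 23.2, 35.0 and 37.4 CPM against 158 and 208 CPM. Cd74, the invariant chain of MHC class II, had 33.9, 52.0 and 32.8 CPM against 11.2 and 9.47 CPM (log2 fold change 1.91 ± 0.30, edgeR adjusted p = 0.00122). Cd274, which encodes PD-L1, was near the floor, with 2, 1 and 2 counts against 21 and 10, a control-to-conditioned ratio of 2.44 with a 95% counting interval of 0.939 to 8.03.

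Contractile genes were mostly lower. Of 39 measured, 25 were lower (64.1%, against 18.9% of all genes), 3 were higher and the median log2 fold change was -1.37. The number lower was 23 without control replicate 1 and 22 without control replicate 2. Tagln (SM22), an actin-binding protein of smooth muscle, had 3.14, 4.73 and 5.25 CPM against 373 and 406 CPM, a log2 fold change of -6.48 ± 0.23 (edgeR adjusted p = 1.32e-07). Myl9, a regulatory light chain of myosin, had 36.4, 18.9 and 40.7 CPM against 405 and 490 CPM (log2 fold change -3.77 ± 0.25, edgeR adjusted p = 5.89e-06). Acta2, which encodes α-smooth muscle actin, the usual marker of myofibroblasts, had 3, 2 and 1 counts against 170 and 107, so its conditioned level was at the floor. The control-to-conditioned ratio was 18.1 (95% counting interval 8.23 to 49.9; edgeR adjusted p = 0.000122). Actg2, another smooth muscle actin, had 5.02, 5.67 and 5.25 CPM against 51.1 and 62.1 CPM. Groups were far apart in all 4 genes.

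Among other actin-binding proteins, Cnn2 and Tpm1 were lower. Cnn2, a calponin, had 307, 337 and 290 CPM against 1501 and 1499 CPM (log2 fold change -2.27 ± 0.15, edgeR adjusted p = 4.95e-06). Tpm1, a tropomyosin, had 440, 373 and 349 CPM against 1182 and 1457 CPM (log2 fold change -1.77 ± 0.17, edgeR adjusted p = 6.47e-05). Vcl, a focal adhesion protein, was uneven, with 22, 2 and 0 counts against 279 and 230, and it passed edgeR's test (adjusted p = 0.00609) but neither DESeq2 test. Tpm2 did not pass, at 55.8, 80.4 and 76.2 CPM against 112 and 84.2 CPM. Of the 3 genes whose CArG promoters are printed above, Myl9 and Cnn2 thus stayed called under every alternative and Vcl under those that used edgeR.

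Of 29 genes of the SRF and YAP list, 11 were lower (37.9%, against 18.9% of all genes; 6 without control replicate 1) and 3 were higher (10.3%, against 18.2%). Ccn2 (CTGF), a matrix protein and classical YAP target, had 3.76, 7.56 and 7.22 CPM against 106 and 117 CPM (log2 fold change -4.20 ± 0.27, edgeR adjusted p = 4.34e-06). Ankrd1, a muscle repeat protein, had 80.9, 78.5 and 70.2 CPM against 511 and 475 CPM (log2 fold change -2.69 ± 0.16, edgeR adjusted p = 2.70e-06). Ccn1 had 178, 152 and 162 CPM against 361 and 402 CPM (log2 fold change -1.22 ± 0.15, edgeR adjusted p = 0.000346). No value of these 3 genes overlapped between media, although Ccn2 rested on few counts with shControl-CM. Nt5e (CD73), an ecto-enzyme that makes adenosine, went the other way, with 51.4, 42.5 and 31.5 CPM against 3.07 and 2.10 CPM (log2 fold change 3.98 ± 0.36, edgeR adjusted p = 4.67e-05).

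Of 28 TGF-β genes, 8 were higher (28.6%, against 18.2% of all genes) and 9 lower (32.1%, against 18.9%), with a median log2 fold change of 0.09, which turned to -0.03 with total counts as scaling and to -0.2 at equal depth. Among the ligands, Tgfb1 had 93.5, 118 and 91.9 CPM against 45.7 and 55.3 CPM, whereas Tgfb3 had 8.78, 9.46 and 5.25 CPM against 48.9 and 47.1 CPM (log2 fold changes 1 ± 0.19 and -2.63 ± 0.29, edgeR adjusted p = 0.00387 and 0.000161). Receptors were likewise opposed. The type I receptor Tgfbr1 had 267, 267 and 297 CPM against 68.0 and 60.2 CPM (log2 fold change 2.11 ± 0.17, edgeR adjusted p = 2.19e-05). The type II receptor Tgfbr2 had 27.6, 24.6 and 25.6 CPM against 65.1 and 65.4 CPM (log2 fold change -1.33 ± 0.20, edgeR adjusted p = 0.000913). Of the targets, the matrix protein Postn had 13.8, 10.4 and 9.19 CPM against 265 and 228 CPM (log2 fold change -4.45 ± 0.22, edgeR adjusted p = 8.72e-07).

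**Figure D3:**
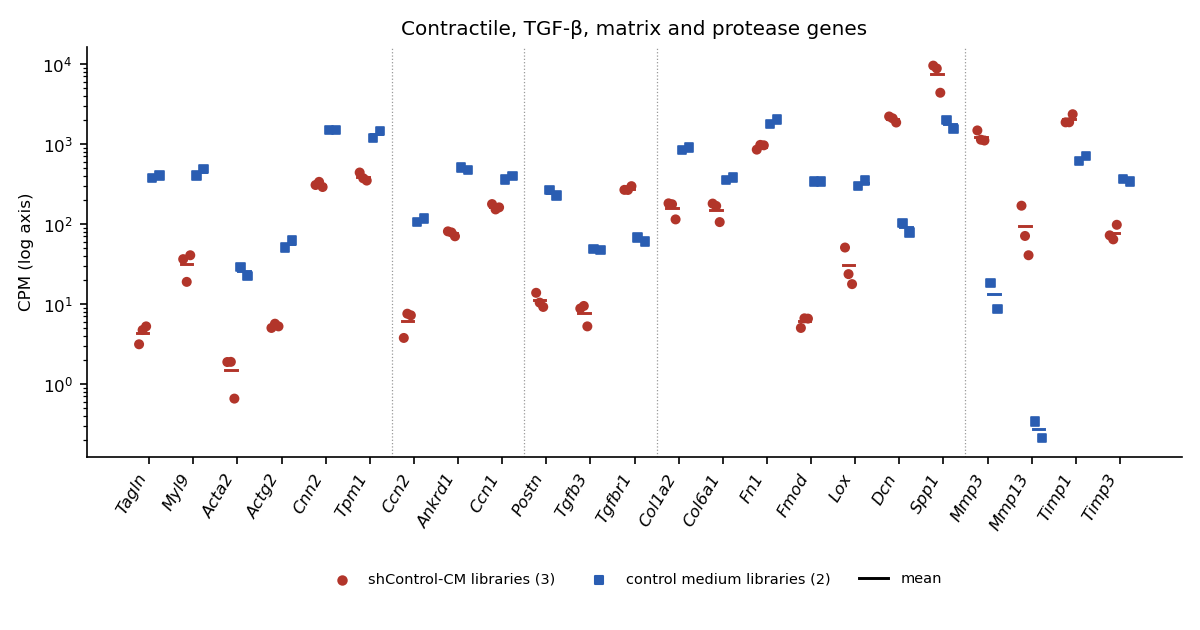
CPM in each library (log axis) of contractile, YAP target, TGF-β, matrix and protease genes, divided by dotted lines, with red circles for the 3 shControl-CM libraries, blue squares for the 2 control libraries and short lines for means. Red lies below blue from Tagln to Tgfb3 and above it for Tgfbr1, Dcn, Spp1, Mmp3, Mmp13 and Timp1.

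Collagen chains were lower in 13 of 27 (48.1%, against 18.9% of all genes) and higher in 3, with a median log2 fold change of -1.53. Col1a2, a chain of type I collagen, had 181, 177 and 114 CPM against 847 and 909 CPM (log2 fold change -2.48 ± 0.20, edgeR adjusted p = 2.54e-05). Col1a1, the other chain, had 38.3, 70.0 and 68.3 CPM against 98 and 220 CPM. The control libraries disagreed on it, and without control replicate 2 its log2 fold change went from -1.45 to -0.75 and the call was lost. Col6a1, of the filaments around cells, had 180, 168 and 106 CPM against 356 and 383 CPM (log2 fold change -1.29 ± 0.21, edgeR adjusted p = 0.00164). Col15a1, a basement membrane collagen, had 3, 1 and 0 counts against 162 and 131, a control-to-conditioned ratio of 28.8 (95% counting interval 11.1 to 106). Lox, which crosslinks collagen and elastin, had 50.8, 23.6 and 17.7 CPM against 299 and 351 CPM (log2 fold change -3.37 ± 0.32, edgeR adjusted p = 7.37e-05). Among collagen enzymes 10 of 27 were lower (37%, against 18.9% of all genes; 5 without control replicate 2) and 5 higher (18.5%, against 18.2%; 2 without control replicate 1).

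Of 46 other matrix proteins, 12 were higher (26.1%, against 18.2% of all genes) and 19 lower (41.3%, against 18.9%). Fibromodulin (Fmod) and decorin (Dcn), small leucine-rich proteoglycans that both bind collagen, went opposite ways. Fmod had 5.02, 6.62 and 6.57 CPM against 340 and 340 CPM (log2 fold change -5.81 ± 0.21, edgeR adjusted p = 1.32e-07), whereas Dcn had 2210, 2095 and 1858 CPM against 103 and 78.3 CPM (log2 fold change 4.50 ± 0.21, edgeR adjusted p = 8.34e-07). Elastin (Eln) was at the floor in shControl-CM, with 2, 3 and 1 counts against 450 and 338, a control-to-conditioned ratio of 51.6 (95% counting interval 23.6 to 141). Fibronectin (Fn1) had 851, 976 and 964 CPM against 1793 and 2026 CPM (log2 fold change -1.04 ± 0.15, edgeR adjusted p = 0.000774). Tenascin C (Tnc), a matrix protein of injured tissue, had 388, 319 and 290 CPM against 145 and 160 CPM. Osteopontin (Spp1), a secreted ligand of integrins and CD44, had 9556, 8803 and 4378 CPM against 2007 and 1556 CPM (log2 fold change 2.09 ± 0.31, edgeR adjusted p = 0.00101).

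Matrix-degrading enzymes and their inhibitors changed in both directions. Mmp3 (stromelysin 1) had 1479, 1132 and 1106 CPM against 18.2 and 8.63 CPM (log2 fold change 6.5 ± 0.34, edgeR adjusted p = 1.28e-06). Mmp13, a collagenase, had 270, 75 and 62 counts against 2 and 1, a ratio of 345 after scaling (95% counting interval 117 to 1681), and its shControl-CM library 1 stood above the other two. Mmp2 (gelatinase A) had 237, 207 and 270 CPM against 58.3 and 63.1 CPM, and Adamts7 had 351, 313 and 438 CPM against 26.9 and 33.2 CPM. Their inhibitors were opposed. Timp1 had 1867, 1870 and 2359 CPM against 616 and 705 CPM, whereas Timp3 had 72.2, 64.3 and 97.8 CPM against 365 and 340 CPM (log2 fold changes 1.62 ± 0.18 and -2.16 ± 0.19, edgeR adjusted p = 0.000156 and 4.12e-05). In the whole list of proteases and inhibitors 9 of 31 were higher (29%, against 18.2% of all genes) and 11 lower (35.5%, against 18.9%; 5 and 6 lower without control replicate 1 and 2, and 7 without shControl-CM replicate 2).

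Of 30 genes of the WNT, BMP and Notch list, 16 were lower (53.3%, against 18.9% of all genes; 9 without control replicate 1) and 2 higher (6.67%, against 18.2%; 0 without control replicate 2, 1 with total counts as scaling and 3 without shControl-CM replicate 3), with a median log2 fold change of -1.38. The secreted WNT modulators Sfrp2 and Dkk2 fell. Sfrp2 had 10.7, 10.4 and 7.88 CPM against 456 and 377 CPM (log2 fold change -5.43 ± 0.21, edgeR adjusted p = 2.44e-07), and Dkk2 had 5, 0 and 1 counts against 688 and 350 (log2 fold change -6.02 ± 0.49, edgeR adjusted p = 2.60e-05). The BMP targets Id1, Id2 and Id3, which inhibit basic helix-loop-helix factors, were lower together. Id3 had 277, 268 and 284 CPM against 1221 and 904 CPM, and Id2 had 18.8, 17.0 and 8.53 CPM against 173 and 128 CPM (log2 fold changes -1.94 ± 0.17 and -3.36 ± 0.28, edgeR adjusted p = 3.69e-05 and 3.03e-05). Notch3, a receptor of contractile cells, had 30.7, 27.4 and 23.6 CPM against 73.1 and 75.7 CPM.

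Of 49 growth factors, 16 were higher (32.7%, against 18.2% of all genes) and 13 lower (26.5%, against 18.9%), or 8 lower in libraries of equal depth. Without control replicate 1 and 2 the numbers were 10 and 9 higher and 6 and 5 lower. The median of -0.43 turned to 0.45 at equal depth, where fewer genes were tested, and to 0.37 at full depth with edgeR's stricter filter on low counts. Angptl4, which inhibits lipoprotein lipase, had 273, 288 and 318 CPM against 21.8 and 22.7 CPM (log2 fold change 3.72 ± 0.18, edgeR adjusted p = 9.45e-07). Gdnf, a neurotrophic factor, had 28.9, 35.9 and 29.5 CPM against 4.26 and 4.00 CPM. Vegfd, a ligand of lymphatic endothelium, had 10.7, 18.9 and 14.4 CPM against 287 and 270 CPM (log2 fold change -4.28 ± 0.22, edgeR adjusted p = 1.22e-06). Igf2 and the neighbouring imprinted RNA H19 were both lower. Igf2 had 3, 0 and 1 counts against 102 and 73, and H19 had 24, 29 and 40 counts against 1064 and 1241 (log2 fold change of H19 -3.29 ± 0.26, edgeR adjusted p = 2.16e-05). Among MAP kinase and AP-1 genes 16 of 42 were higher (38.1%, against 18.2% of all genes; 10 without control replicate 1) and 7 lower (16.7%, against 18.9%). Ier3, an immediate early gene, had 3359, 2959 and 3114 CPM against 321 and 278 CPM (log2 fold change 3.39 ± 0.18, edgeR adjusted p = 1.29e-06), and Spry1, a feedback inhibitor of receptor kinases, had 3.76, 3.78 and 1.31 CPM against 22 and 22.5 CPM.

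**Figure D4:**
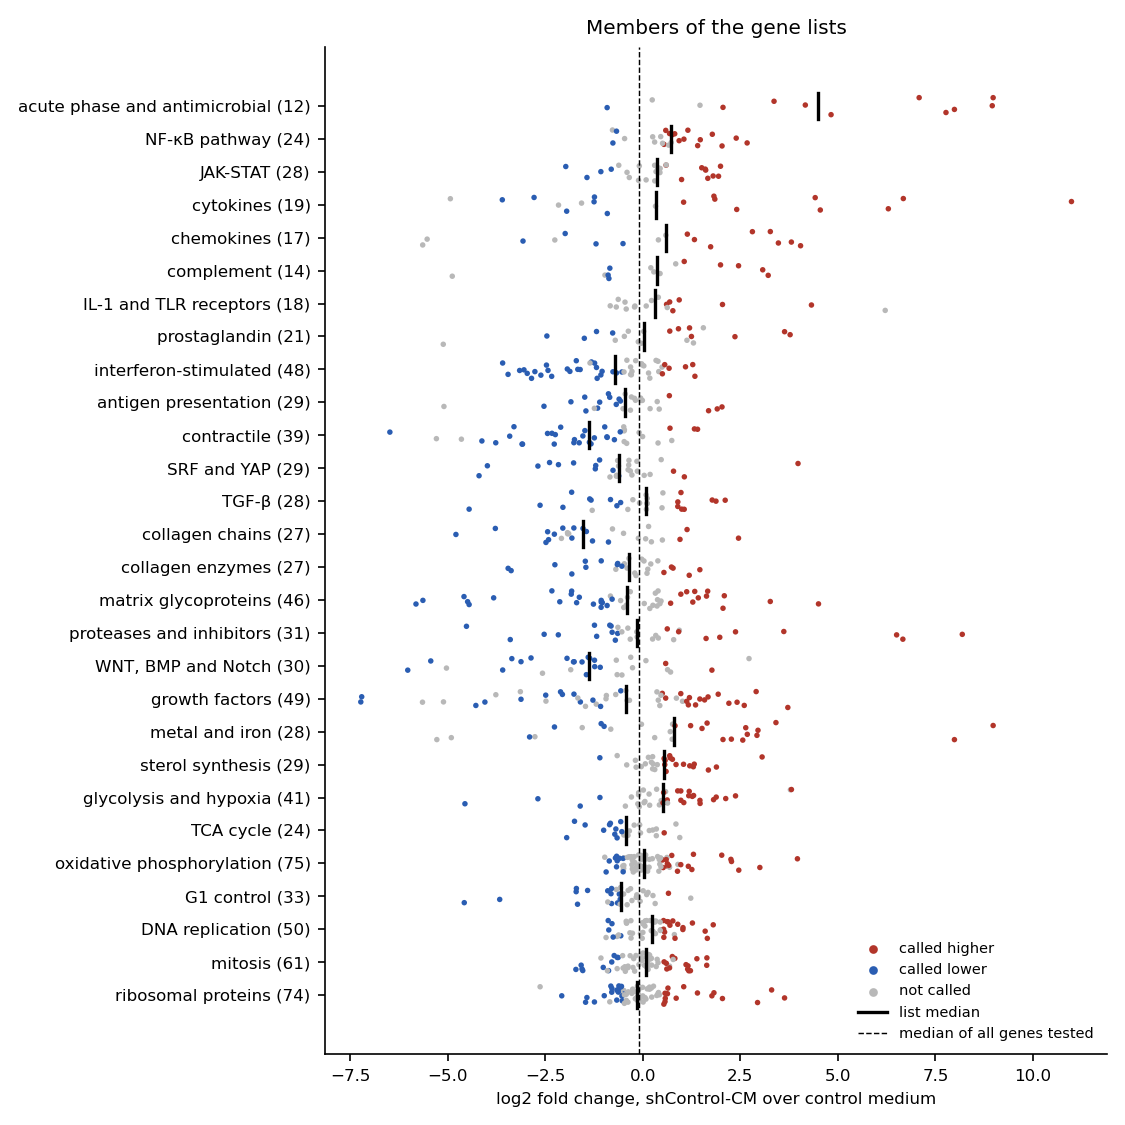
Log2 fold change of shControl-CM over control medium (horizontal axis) for the members of 28 gene lists (rows, number tested in brackets), with red for called higher, blue for called lower, grey for not called, a thick bar for the list median and a dashed line for the median of all genes tested. Acute phase genes lie farthest to the right, and contractile, collagen chain and WNT, BMP and Notch genes farthest to the left.

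In the glycolysis and hypoxia list 19 of 41 genes were higher (46.3%, against 18.2% of all genes; 9 and 10 without control replicate 1 and 2) and 4 lower (2 without control replicate 1). Slc16a3, the lactate exporter MCT4, had 269, 350 and 359 CPM against 11.1 and 36.0 CPM (log2 fold change 3.81 ± 0.41, edgeR adjusted p = 0.000156). Slc2a1, the glucose transporter GLUT1, had 402, 443 and 465 CPM against 139 and 177 CPM (log2 fold change 1.47 ± 0.17, edgeR adjusted p = 0.000229). Pfkl, a phosphofructokinase, had 199, 235 and 260 CPM against 46.3 and 85.6 CPM. Pkm, which makes pyruvate, had 4347, 5005 and 5965 CPM against 1802 and 2439 CPM. Ldha did not pass the test, with 991, 994 and 1122 CPM against 843 and 1209 CPM. Gapdh went the other way, with 22.6, 23.6 and 14.4 CPM against 428 and 517 CPM (log2 fold change -4.56 ± 0.22, edgeR adjusted p = 8.72e-07), but it has many near-identical copies in the genome, so its counts are uncertain. In the TCA cycle 11 of 24 genes were lower (45.8%, against 18.9% of all genes) and 1 higher (4.17%, against 18.2%). Sdhd, a subunit of succinate dehydrogenase, had 51.4, 35.9 and 24.9 CPM against 141 and 150 CPM (log2 fold change -1.95 ± 0.25, edgeR adjusted p = 0.000375). The number lower in that list was 3 and 5 without control replicate 1 and 2, and 7 without shControl-CM replicate 2. Among subunits of oxidative phosphorylation, 36.0% were called, against 37.1% of all genes, with 18 of 75 higher (11 without either control library) and 9 lower (4 without control replicate 1, and 15 with total counts as scaling).

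Of 29 sterol synthesis genes, 15 were higher (51.7%, against 18.2% of all genes) and 1 lower (3 without shControl-CM replicate 1). The number higher was 9 with total counts as scaling and 8 without either control library. Mvd, of the mevalonate pathway, had 216, 268 and 321 CPM against 73.1 and 94.3 CPM (log2 fold change 1.68 ± 0.21, edgeR adjusted p = 0.000353). Sqle, squalene epoxidase, was the gene called lower, and that call was lost without shControl-CM replicate 2 and without either control library.

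In the metal and iron list 14 of 28 genes were higher (50%, against 18.2% of all genes), 10 were not called and 4 were lower (1 without either control library, 2 at equal depth and 7 without shControl-CM replicate 3). Metallothionein Mt2 had 15075, 17071 and 18959 CPM against 1684 and 1517 CPM, and Mt1 had 10026, 12559 and 14799 CPM against 4046 and 3910 CPM (log2 fold changes 3.41 ± 0.20 and 1.65 ± 0.20, edgeR adjusted p = 2.70e-06 and 0.000310). The ferritin chains were opposed, as the heavy chain Fth1 had 14130, 14050 and 11160 CPM against 5295 and 5922 CPM and the light chain Ftl1 had 1491, 1959 and 2300 CPM against 3520 and 4512 CPM. Steap4, a metalloreductase, had 131, 130 and 127 CPM against 22 and 18.3 CPM, its 3 conditioned values being nearly equal. Among antioxidant genes 11 of 43 were higher (25.6%, against 18.2% of all genes; 6 without control replicate 1) and 9 were lower (20.9%, against 18.9%). Sod3, the extracellular superoxide dismutase, had 1446, 1484 and 831 CPM against 311 and 264 CPM (log2 fold change 2.12 ± 0.26, edgeR adjusted p = 0.000271).

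Of 41 heat shock genes, 14 were lower (34.1%, against 18.9% of all genes) and 5 higher (12.2%, against 18.2%). The counts were 7 lower and 3 higher without control replicate 1 and 7 lower and 6 higher without control replicate 2. Cryab, the small heat shock protein αB-crystallin, had 15.1, 21.7 and 23 CPM against 395 and 350 CPM (log2 fold change -4.23 ± 0.20, edgeR adjusted p = 8.72e-07). Hspa1b, an inducible HSP70 with a near-identical neighbour, had 59.6, 47.3 and 34.1 CPM against 191 and 173 CPM. Hsph1, a co-chaperone, was higher, with 171, 209 and 175 CPM against 67.8 and 81.0 CPM (log2 fold change 1.31 ± 0.18, edgeR adjusted p = 0.000531). Hsf1, the factor that drives the heat shock response, did not pass the test, with 184, 185 and 160 CPM against 111 and 159 CPM (log2 fold change 0.39 ± 0.19, edgeR adjusted p = 0.141). In the integrated stress and unfolded protein responses the shares were near those of all genes, with 7 of 44 higher (15.9%, against 18.2%; 3 without control replicate 1) and 9 lower (20.5%, against 18.9%; 2 and 4 without control replicate 1 and 2). Ddit3, the factor CHOP, had 229, 208 and 289 CPM against 244 and 261 CPM.

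Of 33 genes of G1 control in the cell cycle, 13 were lower (39.4%, against 18.9% of all genes; 6 and 7 without control replicate 1 and 2) and 1 was higher. Cyclin D1 (Ccnd1) had 13.2, 18.0 and 11.8 CPM against 160 and 197 CPM (log2 fold change -3.67 ± 0.22, edgeR adjusted p = 3.30e-06), and the inhibitor Cdkn2b had 57.1, 50.1 and 32.8 CPM against 149 and 155 CPM. Gas6, a ligand of TAM receptors named for its induction in growth arrest, had 28.2, 24.6 and 34.8 CPM against 810 and 597 CPM (log2 fold change -4.58 ± 0.21, edgeR adjusted p = 8.34e-07). In DNA replication 16 of 50 genes were higher (32%, against 18.2% of all genes; 7 without control replicate 1) and 5 lower (1 without either control library or without shControl-CM replicate 2, and 10 without shControl-CM replicate 1). E2f1, which turns on S phase genes, had 217, 220 and 215 CPM against 80.6 and 99.7 CPM (log2 fold change 1.27 ± 0.17, edgeR adjusted p = 0.000446). Ccne1, cyclin E1, had 70.9, 86.0 and 82.1 CPM against 35.9 and 42.1 CPM. In mitosis 14 of 61 genes were higher (6 and 7 without control replicate 1 and 2) and 10 lower (4 and 6, and 16 without shControl-CM replicate 1). These shares, 23% and 16.4%, were near the 18.2% and 18.9% of all genes, and scaling by total counts turned the counts to 11 higher and 14 lower. Log2 fold changes of the mitosis list ran from -1.71 (Kif20b) to 1.64 (Ccnb1). Top2a had 450, 381 and 427 CPM against 253 and 244 CPM, and Ccnb1 had 45.8, 55.8 and 76.2 CPM against 18.4 and 19.6 CPM (log2 fold changes 0.76 ± 0.15 and 1.64 ± 0.26, edgeR adjusted p = 0.00470 and 0.00128). Mki67 was called higher too, but not with total counts as scaling, without shControl-CM replicate 2 or without either control library. Ribosomal protein genes, many of which have near-identical copies, ran from log2 fold changes of -2.63 to 3.63, with 15 of 74 higher (20.3%, against 18.2% of all genes; 7 without control replicate 1) and 20 lower (27%, against 18.9%; 10 without control replicate 2). With total counts as scaling they were 11 higher and 25 lower.

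The label of the cells was checked against marker lists. All 13 fibroblast markers were measured, at a summed level of 5752 to 6753 CPM with shControl-CM and 8432 and 9832 CPM with control medium. Of these, 4 were higher and 5 lower, against 18.2% and 18.9% of all genes. Dcn made up 1858 to 2210 CPM of the conditioned sums and 103 and 78.3 CPM of the control sums. Fap had only 1, 1 and 0 counts with shControl-CM and 8 and 6 with control medium. Pdgfra and Pdgfrb did not pass the test in either direction. Vim, the intermediate filament of mesenchymal cells, was lower, with 453, 370 and 235 CPM against 3330 and 4027 CPM (log2 fold change -3.38 ± 0.25, edgeR adjusted p = 1.31e-05). Thy1 had 594, 873 and 970 CPM against 196 and 257 CPM, and Pdpn had 175, 234 and 297 CPM against 24.7 and 29.5 CPM (log2 fold changes 1.84 ± 0.23 and 3.12 ± 0.25, edgeR adjusted p = 0.000356 and 2.45e-05). Myofibroblast markers summed to 108 to 129 CPM against 950 and 1032 CPM, and 4 of 5 were lower, against 18.9% of all genes. Rarres2, which encodes chemerin, had 509, 682 and 802 CPM against 25.4 and 26.3 CPM.

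Markers of other cells were few. Of 17 epithelial markers, which organoid cells carried over would bring, 3 were measured, with sums of 56.5 to 68.3 CPM against 36.2 and 40.9 CPM. Muc1 and Krt18 were higher and Krt19 was lower, at 2.51, 3.78 and 1.97 CPM against 23.9 and 24.8 CPM. Of 11 leukocyte markers 4 were measured and 3 were higher (Cd68, Csf1r and Cd14), which is 75% of those measured against 18.2% of all genes. The 4 summed to 133 to 260 CPM against 42.7 and 62.2 CPM, of which Cd14 made up 98.5 to 237 CPM and 33.5 and 50.9 CPM. Ptprc, the common leukocyte marker, and Epcam and Krt8 were not among the genes tested. Endothelial markers, 3 of 6 measured, summed to 0 to 2.51 CPM against 5.89 and 6.64 CPM. The part of other cells in the results was not tested.

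Because the control libraries were deeper, all libraries were also thinned at random to the smallest total, 1093609 counts. The number of genes called was then 3474, of which 1779 were higher and 1695 lower. Of 244 genes that met the selection rule for named genes or were added to it, were called and had more than 3 counts in some library of each medium, 243 kept the sign of their log2 fold change, and the values differed by a median of 0.09 and by at most 1.6 (Ctsc). Thinned libraries are drawn from the same reads, and 14 of all 261 such genes, Mmp9 included, lost their call in them. The exception was Mmp9, which was called lower by a log2 fold change of -0.79 at full depth. Of 17 further such genes at the floor in one medium, all kept their sign, with a median difference of 0.30.

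**Figure D5:**
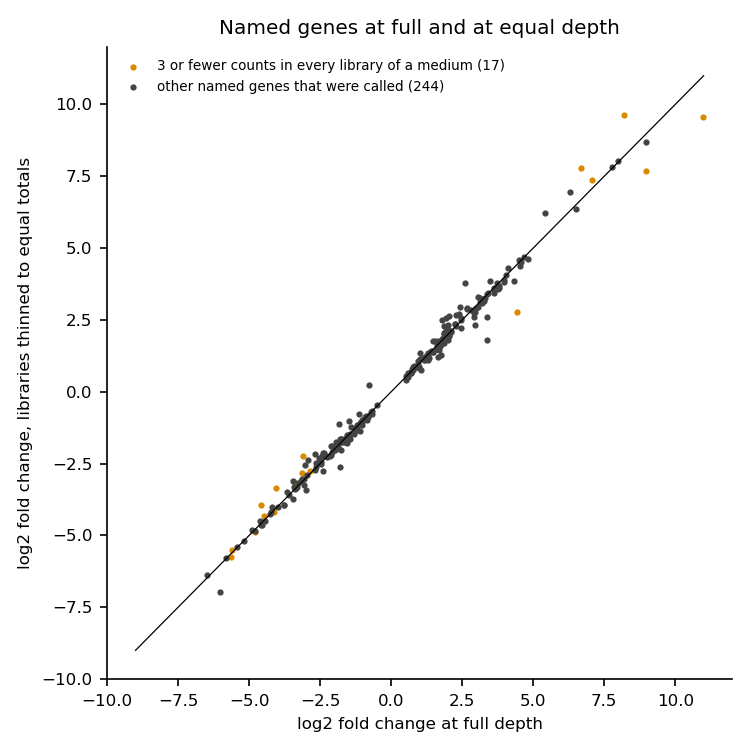
Log2 fold change of called genes from the selection for naming, at full depth (horizontal axis) and with all 5 libraries thinned to 1093609 counts (vertical axis), in grey for 244 genes above the floor in both media and orange for 17 genes with 3 or fewer counts in every library of a medium. Points lie along the line of equality, and 243 of the 244 grey points keep their sign.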

How the data were processed

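Mouse PSC cultures were sequenced by MARS-seq, which counts the 3′ ends of transcripts. The authors deposited a table of raw counts per gene, and the submitters' processing notes name bcl2fastq, cutadapt, STAR 2.4.2a, HTSeq, DESeq2 and mm10. How molecular identifiers were treated and how genes were selected for the table is not given in the sources used here. Columns were matched to samples by name, and 1 column, whose name is that of a further DMEM library but matches no sample, was not used. Totals ran from 1093609 to 5476988 counts.

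The 3 shControl-CM and 2 control libraries were compared in edgeR 4.0.16 (R 4.3.3) with TMM scaling, a minimum of 10 counts over the 5 libraries, the quasi-likelihood test and Benjamini-Hochberg adjustment. SE is the absolute log2 fold change divided by the root of the F statistic. Fold changes of genes with 3 or fewer counts in every library of a medium are given as count ratios or bounds. Alternatives used DESeq2 1.42.0, other scaling, filters and thresholds, a replicate block, thinning by drawing reads without replacement, and leaving out each library. Tables and figures used Python 3.11.15, pandas 2.3.3 and matplotlib 3.10.9. The fit was tested on simulated counts.

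The genes and gene lists were chosen with earlier results of these data known. Genes were named from a selection made of the 12 called genes with the highest and the 12 with the lowest log2 fold change that did not overlap between media and averaged at least 50 CPM in the higher medium, the 8 with the largest increase and the 8 with the largest decrease of mean CPM, up to 5 called members of each list with the largest change and at least 10 CPM, the defining members of each list, and genes the study names for stellate cells. A further 21 genes, among them Cxcl3, Cxcl10, Ccl5, Cnn2, Tpm1, Cebpb, Csf1, Il33, Mmp2, Timp3 and Tgfbr2, were named after their values were seen. Not all genes of the selection are described, and some members of the lists are not reported here by name.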

Additional observations from a re-analysis of the deposited data

How the results depend on the processing

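Of 4488 genes called (2200 higher and 2288 lower), 2375 passed an adjusted p of 0.05 with a log2 fold change of 1, of which 1088 were higher and 1287 lower. Leaving out 1 library gave 1901 to 5157 genes called, 1019 to 2378 higher and 882 to 2779 lower. The lowest counts came without control replicate 1 and the highest without shControl-CM replicate 1. Without control replicate 2, 2269 genes were called. A lone control library is assumed to vary like the conditioned ones. Scaling by total counts called 4469 genes, of which 40.2% were higher, compared with 49.0% with TMM, and moved the median of all genes to -0.21. DESeq2 called 3502 genes with the likelihood ratio test and 3470 with the Wald test. With the replicate block 4512 genes were called, 4020 of them shared with the fit without it. The media share only 2 replicate numbers, whose deviations from the mean of their medium correlated at 0.15 and -0.00164. With 2 control libraries these deviations mirror each other, so the check cannot decide whether the numbers pair the libraries. Thinning every library to the smallest total called 3474 genes and thinning the controls called 3737. Mmp9 alone of the 261 called genes in the selection for naming changed sign, to a log2 fold change of 0.22 with every library thinned. Of these 261 genes, 218 and 224 were still called without control replicate 1 and 2. Genes with 3 or fewer counts in every conditioned library are limited by depth.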
